A study of Homo sapiens with 8 samples.

Results

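The proteasome genes of MDA-MB-231 breast cancer cells and of a mitochondrial DNA-depleted ρ0 line were followed through arginine starvation. The members were taken by name, as every gene of the deposited table with a symbol of the PSMA, PSMB, PSMC, PSMD, PSME, PSMF or PSMG series that had at least 10 counts in 2 or more libraries. Of 48 matching symbols, 46 met this minimum among the 23393 genes of the table, and all 46 also passed the expression filter of the test, with 15262 genes in all. The other 2 symbols were PSMA8, the testis-type alpha subunit, which had no count in any library, and PSMB11, the thymus-type catalytic subunit, which had at most 0.06 counts per 1000000 counts (CPM).

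MDA-MB-231 is an established triple-negative line with little ASS1, the enzyme needed to make arginine. RNA-seq covered 4 groups of 2 libraries: parental cells in full growth medium (control), parental cells starved of arginine for 48 h, ρ0 control cells and ρ0 cells starved for 48 h. The ρ0 line was clone 27, so 1 clone stood for the ρ0 state, and per the study's methods it was a gift line kept under ethidium bromide with pyruvate and uridine. The labels give the starvation as arginine deiminase (ADI), an arginine-degrading enzyme, at 0.3 µg/mL, whereas the methods describe arginine-starved medium with dialysed serum. Clone, culture conditions and mitochondrial DNA loss cannot be told apart in any comparison between the lines. The labels do not say whether libraries of a group came from separate cultures, so p-values rest on the spread between libraries. Each gene had 1 estimate of that spread, shared by the 4 groups. SEs and p-values therefore do not follow the spread of the groups being compared.

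The 26S proteasome is the ATP-dependent protease that degrades ubiquitin-tagged proteins. Its 20S core stacks rings of alpha subunits, which gate the entrance, around rings of beta subunits, of which PSMB5, PSMB6 and PSMB7 carry the active sites. The 19S cap recognises, unfolds and feeds substrates through a ring of ATPases (PSMC) and a set of non-ATPase subunits (PSMD). In cells exposed to interferon, PSMB8, PSMB9 and PSMB10 take the places of PSMB5, PSMB6 and PSMB7 to form the immunoproteasome, which favours peptides for MHC class I. Dedicated chaperones assemble the core and the cap, and activators such as PSME1 with PSME2, PSME3 or PSME4 can cap the core in place of 19S.

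Totals ran from 25259503 to 31022155 counts per library, of which the 46 genes took 0.627% to 0.765%. Levels are given as CPM after TMM scaling. Groups are said not to overlap where both libraries of 1 group lay above both of the other. With 2 libraries against 2, such separation has a two-sided exact permutation p of 0.33. The share of all genes separated in this way was not counted, so it is given as a description only. The ρ0 control libraries stood apart: their biological coefficient of variation was 25.1%, against 1.84% to 5.18% in the 3 other groups. Among the members, the largest gap between the ρ0 control libraries was for PSMB9 (0.73 on the log2 scale). The fit to all 8 libraries had 12.4%, above the 3 other groups and below ρ0 control. SEs may thus be too large in comparisons without ρ0 control and too small in those with it. VIM, CD44, FN1 and ZEB1, mesenchymal markers of the line, were present in every library, although FN1 had 11818 and 2834 counts in the ρ0 control libraries. ESR1 and PGR had at most 6 counts, PTPRC of leukocytes at most 13, PECAM1 of endothelium 1 to 91, and COL1A1 and PDGFRB of fibroblasts 167 to 471 and 15 to 333. The epithelial genes CDH1 and EPCAM, which MDA-MB-231 lacks, had 0 to 15 counts in the parental libraries and 104 to 697 in the ρ0 libraries, and ASS1 had 1 to 10 counts against 183 to 684. Whether the gift line came from the same stock as the parental cells was not tested here, so a difference of origin between the lines cannot be told apart from the ρ0 state. The part of these differences in the results below was not tested. No protein-coding gene of mitochondrial DNA was found among the deposited counts under the symbols searched, so the depletion itself could not be checked.

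Promoter sequence is shown for the 3 immunoproteasome genes and for PSMD12, PSMD14 and PSME4, since in starved parental cells PSMB9 had the largest fall of the members and the latter 3 the largest rises, and PSMB8 and PSMB10 complete the immunoproteasome. The 250 bases before the RefSeq start (GRCh38.p14) are printed 5′ to 3′ on the strand of the gene. Capitals mark any match, on either strand, to TGANNNNGC, TTCNNNGAA (GAS type), the ISRE core or CCAAT. TGANNNNGC, with any base at N, is a loose pattern for the antioxidant-type element of NFE2L1 and NFE2L2, and a match need not be that element. The ISRE core, of the interferon-stimulated response element, is GAAA and again GAAA with any 2 bases between.
PSMB8 (chr6:32844680-32844929, minus strand): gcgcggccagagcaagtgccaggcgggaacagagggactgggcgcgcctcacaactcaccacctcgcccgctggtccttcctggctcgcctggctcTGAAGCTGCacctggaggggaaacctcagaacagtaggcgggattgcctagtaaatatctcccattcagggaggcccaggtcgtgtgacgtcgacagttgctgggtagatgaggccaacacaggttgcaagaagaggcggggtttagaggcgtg
PSMB9 (chr6:32853942-32854191, plus strand): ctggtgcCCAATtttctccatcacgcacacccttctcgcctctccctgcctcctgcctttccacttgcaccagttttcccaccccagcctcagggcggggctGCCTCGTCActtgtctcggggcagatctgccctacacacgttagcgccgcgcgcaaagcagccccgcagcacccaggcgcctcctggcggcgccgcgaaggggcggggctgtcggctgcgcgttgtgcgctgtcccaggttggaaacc
PSMB10 (chr16:67936851-67937100, minus strand): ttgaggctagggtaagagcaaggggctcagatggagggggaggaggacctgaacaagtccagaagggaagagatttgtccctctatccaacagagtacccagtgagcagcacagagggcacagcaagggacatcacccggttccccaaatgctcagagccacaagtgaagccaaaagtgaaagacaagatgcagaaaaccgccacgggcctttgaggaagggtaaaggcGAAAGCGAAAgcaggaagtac
PSMD12 (chr17:67366578-67366827, minus strand): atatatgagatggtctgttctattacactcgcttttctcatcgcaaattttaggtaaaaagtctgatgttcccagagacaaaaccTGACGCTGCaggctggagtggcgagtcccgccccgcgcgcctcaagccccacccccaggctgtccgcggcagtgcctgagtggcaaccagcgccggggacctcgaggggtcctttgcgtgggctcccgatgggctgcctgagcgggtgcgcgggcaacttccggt
PSMD14 (chr2:161308175-161308424, plus strand): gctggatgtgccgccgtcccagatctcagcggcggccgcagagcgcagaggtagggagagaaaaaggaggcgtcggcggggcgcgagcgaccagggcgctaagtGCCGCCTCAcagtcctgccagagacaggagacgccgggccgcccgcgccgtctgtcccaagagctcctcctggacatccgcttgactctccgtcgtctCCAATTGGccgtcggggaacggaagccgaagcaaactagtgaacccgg
PSME4 (chr2:53970994-53971243, minus strand): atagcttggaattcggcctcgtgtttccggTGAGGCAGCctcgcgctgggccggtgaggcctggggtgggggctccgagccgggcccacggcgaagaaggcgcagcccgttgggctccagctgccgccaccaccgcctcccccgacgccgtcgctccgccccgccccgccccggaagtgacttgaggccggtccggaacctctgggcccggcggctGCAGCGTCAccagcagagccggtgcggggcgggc

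The ISRE core stood in 1 of these 6 sequences, that of PSMB10, 21 bases before the start, as GAAAGCGAAA. TGANNNNGC was matched once each in PSMB8, PSMB9, PSMD12 and PSMD14 and at 2 positions in PSME4. Over windows of 300 bases, 250 before to 50 after the start, which were found for 40 of the 46 members, TGANNNNGC was in 60.0% of members and in 42.1% of all 27305 promoters. The ISRE core was in 15.0% of members against 3.65% of all promoters, namely PSMA4, PSMB4, PSMB10, PSME1, PSME2 and PSMG4. TTCNNNGAA was in 10.0% against 7.88% and CCAAT in 45.0% against 35.7%. Matches of different motifs may overlap, and a match describes letters, not a bound site.

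The first question was how starvation moved the proteasome genes in parental cells. Of the 46 members, 19 were called higher and 12 lower (adjusted p under 0.05, edgeR's quasi-likelihood test with Benjamini-Hochberg adjustment over 15262 genes). These shares, 41.3% and 26.1%, compare with 30.4% higher and 35.5% lower over all tested genes. The median log2 fold change was 0.06 for the members and -0.07 for all genes. With the study's additional fold threshold, a log2 fold change above 1 or below -1, 5 members rose and 4 fell, or 10.9% and 8.7%, against 12.7% and 22.1% of all genes. The split depended on scaling and on single libraries. With total counts alone, 13 members were called higher and 15 lower, beside 3777 and 6261 of all genes. That setting moved the median of all genes by -0.16. With upper quartile scaling, 15 were higher and 13 lower, beside 4021 and 6044. Fewer members were called higher without any 1 of the parental libraries, as over all genes. Without parental control 1, the median of the members relative to all genes was 0.10, against 0.13 with all 8 libraries. In bulk RNA, fewer cells of a kind and less RNA per cell cannot be told apart.

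The immunoproteasome subunits fell in parental cells, and PSMB9 fell furthest of all members. PSMB9, the inducible counterpart of PSMB6, stood at 709 and 617 counts in the control libraries and at 24 and 30 in the starved libraries (21.3 and 21.4 against 0.95 and 1.06 CPM). The starved libraries lay far below the controls with no overlap, a 21.1-fold lower level (log2 fold change -4.40 ± 0.29 (SE), edgeR adjusted p = 1.99e-05). PSMB10, which replaces PSMB7, went from 12.3 and 12.0 CPM to 6.89 and 6.24 CPM, and PSMB8, which replaces PSMB5, from 80.7 and 85.5 CPM to 48.4 and 51.7 CPM. Both fell without overlap, by 0.89 ± 0.14 for PSMB10 and by 0.73 ± 0.10 for PSMB8 on the log2 scale (edgeR adjusted p = 0.00093 and 0.000468).

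The constitutive counterparts rose over the same 48 h. PSMB5, the chymotrypsin-like subunit, read 162 and 180 CPM in control and 216 and 218 CPM in starved libraries. PSMB6, the caspase-like subunit, read 104 and 115 against 144 and 145 CPM, and PSMB7, the trypsin-like subunit, 100 and 107 against 153 and 152 CPM. For each, both starved libraries were above both controls, with log2 fold changes of 0.34 ± 0.08, 0.40 ± 0.10 and 0.55 ± 0.09 (edgeR adjusted p = 0.00653, 0.00981 and 0.000878). The calls of PSMB5 and PSMB6 were lost with total counts alone (adjusted p = 0.0769 and 0.0664) and without parental control 1 (0.0531 and 0.0749), and that of PSMB6 also without either starved parental library (0.0523 and 0.056).

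**Figure D1:**
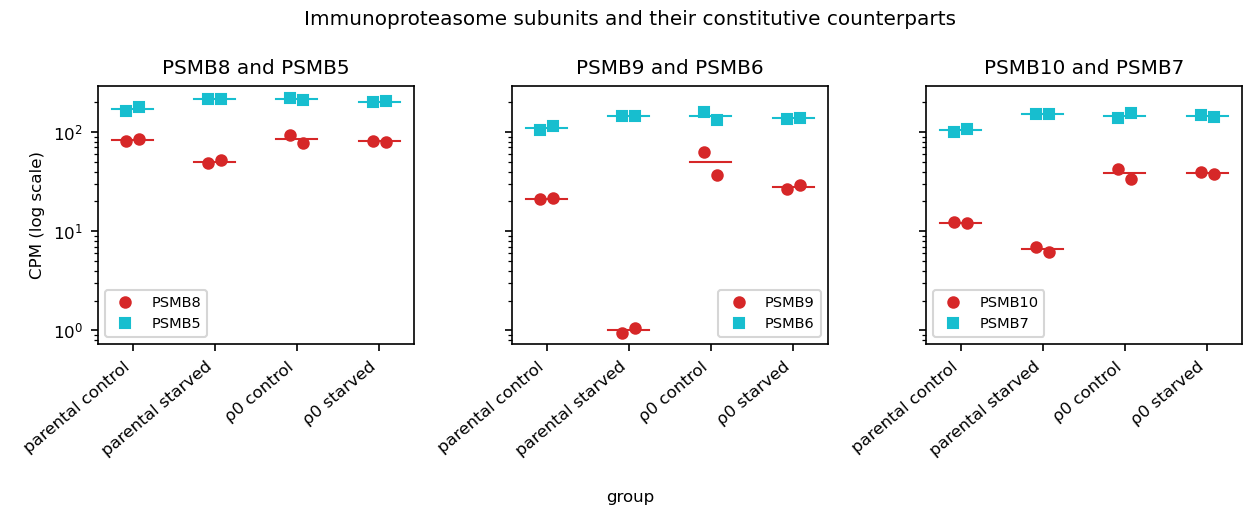
Level (CPM, log axis) of each immunoproteasome subunit (circles) and its constitutive counterpart (squares) by group, with a point per library and a bar for the mean of 2. PSMB9 drops to 0.95 and 1.06 CPM in the starved parental libraries while PSMB6 stays between 104 and 158 CPM in all 8.

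The exchange between counterparts can be read as a ratio of reads within each library, which is independent of scaling but not corrected for transcript length. PSMB9 to PSMB6 was 0.204 and 0.186 in parental control and 0.0066 and 0.00733 in starved libraries. PSMB10 to PSMB7 went from 0.123 and 0.112 to 0.0452 and 0.041, and PSMB8 to PSMB5 from 0.497 and 0.476 to 0.224 and 0.237. All 3 ratios were lower in both starved libraries, with log2 differences of -4.80, -1.45 and -1.08, but 2 libraries against 2 cannot give a two-sided exact permutation p below 0.33. Together PSMB8, PSMB9 and PSMB10 made up 1.90% and 1.89% of the summed CPM of the 46 genes in parental control and 0.746% and 0.772% after starvation.

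Within the alpha ring the parental response was divided, with 3 of 7 genes called higher and 3 lower. PSMA7 rose by 1.12 ± 0.07 and PSMA5 by 0.78 ± 0.08 on the log2 scale. PSMA1 fell by 0.78 ± 0.08, PSMA4 by 0.68 ± 0.09 and PSMA2 by 0.32 ± 0.10, and PSMA6 rose by 0.28 ± 0.10, although the ring holds each of the 7 proteins in equal number. The remaining beta subunits of the core moved less: PSMB1 was called lower (-0.46 ± 0.08), and PSMB2, PSMB3 and PSMB4 were not called, between -0.21 and 0.07.

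The 19S genes also moved both ways, with 9 of 17 called higher and 4 lower. The largest rises were in the lid, the subcomplex that holds PSMD14, the deubiquitinase that removes the ubiquitin chain, and PSMD12, a scaffold subunit. PSMD14 read 166 and 165 CPM in control and 401 and 413 CPM in starved parental libraries, and PSMD12 read 109 and 110 against 265 and 272 CPM. Both rose 2.46-fold without overlap (log2 fold change 1.30 ± 0.08 and 1.30 ± 0.11, edgeR adjusted p = 1.3e-05 and 5.66e-05). PSMD8, another lid subunit, rose by 1.17 ± 0.08, the ATPase PSMC4 by 0.95 ± 0.11 and the lid subunit PSMD7 by 0.69 ± 0.07.

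PSMD1, the large scaffold at the base of the cap, went the other way, from 162 CPM in both control libraries to 58.1 and 61.2 CPM (log2 fold change -1.44 ± 0.08, edgeR adjusted p = 1.14e-05). PSMD3, a lid scaffold, fell by 1.10 ± 0.10, from 183 and 203 to 89.3 and 90.6 CPM. In neither gene did control and starved libraries overlap. PSMD13 (-0.26 ± 0.08) and the ATPase PSMC1 (-0.92 ± 0.25) were also called lower. PSMC1 had only 1.39 to 2.88 CPM in any library and is the gene with the most pseudogenes named after it among the members, 13 in GENCODE v29, so its counts may depend on how shared reads were assigned.

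Among the chaperones, PSMG1, which with PSMG2 begins the alpha ring, rose by 0.78 ± 0.16, and PSMD9, a chaperone of the cap's base, by 0.53 ± 0.09. The other 5, PSMG2, PSMG3, PSMG4, PSMD5 and PSMD10, were not called and lay between 0.00 and 0.11. The activators moved both ways. PSME4 (PA200), a nuclear ring activator, read 175 and 167 CPM in control and 453 and 456 CPM in starved libraries, the largest rise of any member (log2 fold change 1.41 ± 0.08, edgeR adjusted p = 1.16e-05). PSME3, the nuclear activator PA28 gamma, rose by 0.81 ± 0.16.

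PSME1, the PA28 alpha subunit induced by interferon, instead went from 62.7 and 65.1 CPM to 26.0 and 26.4 CPM, a 2.44-fold lower level without overlap (log2 fold change -1.29 ± 0.12, edgeR adjusted p = 7.52e-05). Its partner PSME2, PA28 beta, was not called, at 26.4 and 25.1 against 31.3 and 29.8 CPM (0.25 ± 0.13, adjusted p = 0.127). PSMF1, the inhibitor PI31, was not called either (-0.02 ± 0.12). PSME1 and PSME2 lie near each other, with EMC9 between them in RefSeq. In GENCODE v29 an exon of EMC9 overlaps PSME1 on the opposite strand, so the counts of PSME1 may hold reads of EMC9.

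In ρ0 cells more members fell than rose under starvation. Of the 46 members, 23 were called lower and 5 higher, that is 50.0% and 10.9% against 22.1% and 19.2% of all tested genes. The median log2 fold change was -0.28 for the members and -0.02 for all genes. The changes were small: past the fold threshold 1 member fell (2.17% against 8.19% of all genes), and the largest rise was 0.43, while 4.22% of all genes rose past the threshold. Without ρ0 control 1, the median of the members relative to all genes was -0.32, against -0.26 with all 8 libraries. More members were called without either ρ0 control library and fewer without any other library, as over all genes. With total counts alone, 2 were higher and 24 lower, beside 2416 and 3909 of all 15262 genes. Limma-voom with group weights, which let the groups differ in spread, gave 2 and 16, beside 1797 and 2196. With only the 4 ρ0 libraries in the fit the split was 1 and 11, beside 1462 and 1665 of 14127 genes.

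In the core, 8 of 14 constitutive subunits were called lower and 1 higher in ρ0 cells. PSMB1, a structural beta subunit, read 193 and 180 CPM in control and 99.8 and 96.8 CPM in starved ρ0 libraries, lower in both without overlap (log2 fold change -0.92 ± 0.08, edgeR adjusted p = 0.000236). PSMA1, PSMA2, PSMA3 and PSMA4 fell by 0.56 to 0.87 and PSMB2, PSMB3 and PSMB4 by 0.43 to 0.61. The catalytic PSMB5, PSMB6 and PSMB7 were not called, at 222 and 210, 158 and 133, and 138 and 155 CPM in control against 201 and 205, 136 and 140, and 148 and 140 CPM in starved libraries.

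The exception in the core was PSMA7, which rose from 416 CPM in both ρ0 control libraries to 567 and 552 CPM (log2 fold change 0.43 ± 0.07, edgeR adjusted p = 0.00335). In the cap, 10 of 17 genes were called lower and 3 higher. PSMD3 read 232 and 276 against 119 and 112 CPM and PSMD1 211 and 193 against 104 and 107 CPM, both lower without overlap (log2 fold change -1.14 ± 0.10 and -0.94 ± 0.08, edgeR adjusted p = 0.000297 and 0.000226). The 3 that rose were PSMD7, from 125 and 129 to 168 and 160 CPM, PSMD14 (0.29 ± 0.07) and PSMD12, from 115 and 146 to 168 and 172 CPM.

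The groups did not overlap for PSMD7 (0.37 ± 0.07, edgeR adjusted p = 0.00647) or PSMD12 (0.38 ± 0.11, 0.029). The rise of PSMD12 was small beside the gap between its control libraries, and its call was lost in 8 alternatives apart from stricter thresholds (adjusted p from 0.0591 to 0.119), among them leaving out any library outside ρ0 control. The call of PSMD7 was lost without ρ0 starved 1 (adjusted p = 0.0631). All 6 ATPases had log2 fold changes below 0, from -0.52 to -0.21, and 4 were called. Among the chaperones PSMG2, PSMD5 and PSMD9 were called lower, and PSMF1 fell by 0.55 ± 0.12. PSME4 rose by 0.28 ± 0.08, the remaining call in this comparison.

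The immunoproteasome in ρ0 cells moved far less than in parental cells. PSMB9 read 62.4 and 37.2 CPM in control and 26.7 and 29 CPM in starved libraries, lower in both but with control libraries that differed widely (log2 fold change -0.84 ± 0.22, edgeR adjusted p = 0.0185). That change was -0.42 without ρ0 control 1 and -1.15 without ρ0 control 2, and the call was lost without ρ0 starved 1 or 2 (adjusted p = 0.125 and 0.0879) and with the 4 ρ0 libraries alone (0.0925). PSMB8 read 92.4 and 77.9 against 81.2 and 80.2 CPM and PSMB10 read 42.7 and 33.9 against 39.2 and 37.8 CPM, so in both genes the starved libraries lay between the controls and neither was called. PSMB10 was called higher without ρ0 control 1 (0.19, adjusted p = 0.0489) and PSMB8 lower without ρ0 control 2 (-0.18, adjusted p = 0.0129). The ratio of PSMB9 to PSMB6 was 0.395 and 0.279 in control and 0.197 and 0.207 in starved ρ0 libraries. PSMB10 to PSMB7 was 0.309 and 0.219 against 0.265 and 0.269, and PSMB8 to PSMB5 0.417 and 0.370 against 0.405 and 0.390.

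**Figure D2:**
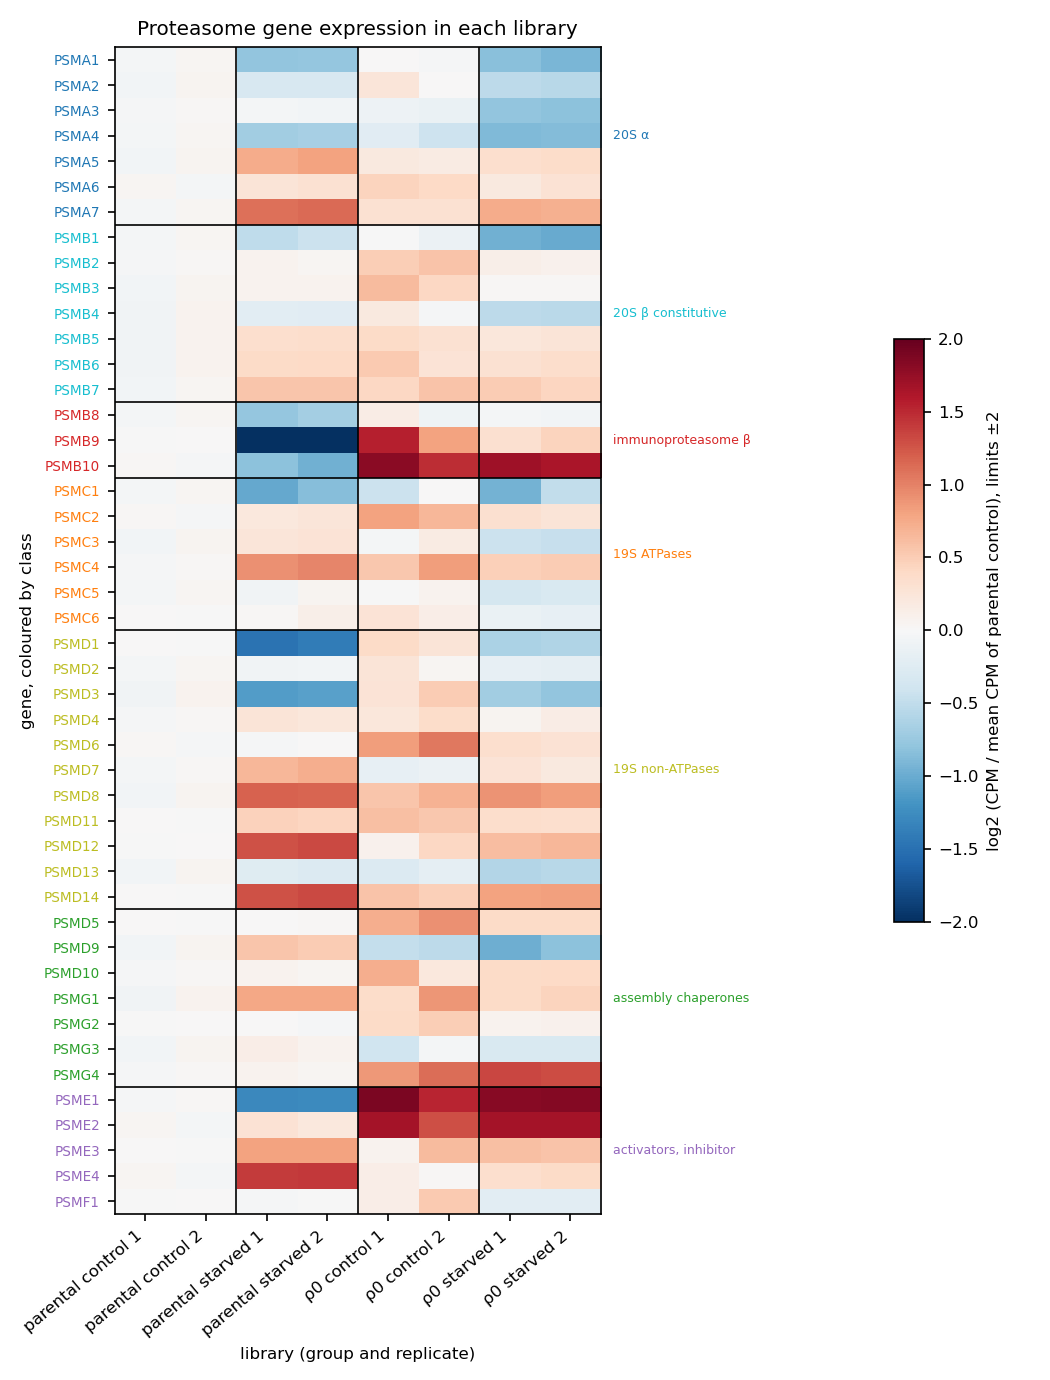
Each row is a member and each column a library, coloured by log2 of the CPM over the mean of the parental control libraries, with the scale limited to ±2. PSMB9 is darkest in the starved parental libraries, and PSMB10, PSME1 and PSME2 are high in all 4 ρ0 libraries.

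A direct test of the difference between the responses, ρ0 minus parental, gave 29 members lower and 5 higher, or 63.0% and 10.9% of the members against 18.8% and 21.6% of all tested genes. The median difference was -0.45 for the members and 0.02 for all genes. Relative to all genes, the median of the members was -0.47. It was -0.51 without ρ0 control 2 and -0.43 without parental control 1. More members were called lower without either ρ0 control library and fewer without any other library, as over all genes. Fewer were called higher without parental starved 1 or either starved ρ0 library, again as over all genes. Upper quartile scaling left 19 lower, beside 2280 of all 15262 genes. Past the fold threshold, 4 were lower and 2 higher, or 8.7% and 4.35% against 6.62% and 13.3% of all genes.

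All 7 constitutive beta subunits had a lower response in ρ0 cells (differences from -0.58 to -0.40), as had 4 of 7 alpha subunits, 5 of 6 ATPases, 7 of 11 non-ATPases, 4 of 7 chaperones and PSME4 and PSMF1 of the activators and inhibitor. The largest negative difference was that of PSMC4, which read 112 and 116 against 215 and 225 CPM in parental cells and 165 and 204 against 158 and 161 CPM in ρ0 cells (-1.15 ± 0.15, edgeR adjusted p = 0.00149). PSME4 followed, at 189 and 175 against 216 and 224 CPM in ρ0 cells (-1.13 ± 0.11, adjusted p = 0.000542). PSMG1 read 39.4 and 43.1 against 70.8 and 70.5 CPM in parental cells and 53.1 and 75.8 against 53.6 and 55.9 CPM in ρ0 cells (-1.01 ± 0.22, edgeR adjusted p = 0.0101, lost without parental control 1 at 0.0511). The parental libraries of these 3 genes were separated by starvation, and the ρ0 libraries of PSMC4 and PSME4 were separated by smaller steps, while those of PSMG1 were near the lower control. Apart from stricter thresholds, the call of PSMB6 was lost in 9 alternatives and that of PSMB5 in 6, at adjusted p up to 0.121 and 0.0876.

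The 5 members with a higher response in ρ0 cells were PSMB8, PSMB9, PSMB10, PSME1 and PSMD1. The difference was 3.56 ± 0.37 for PSMB9, 0.90 ± 0.19 for PSMB10 and 0.65 ± 0.14 for PSMB8 (edgeR adjusted p = 0.000697, 0.00888 and 0.00965). It was 1.40 ± 0.17 for PSME1, which read 236 and 184 against 225 and 228 CPM in ρ0 cells, where the groups overlapped (adjusted p = 0.00111). PSMD1 fell in both lines, by 0.51 ± 0.11 less in ρ0 cells. The calls of PSMB8 and PSMB10 were lost without ρ0 starved 1 (adjusted p = 0.0553 and 0.0502), and that of PSMB8 also without parental starved 1 (0.0524).

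Read gene by gene, 8 members fell in both lines (PSMA1, PSMA2, PSMA4, PSMB1, PSMB9, PSMD1, PSMD3 and PSMD13) and 5 rose in both (PSMA7, PSMD7, PSMD12, PSMD14 and PSME4). Another 4 rose in parental and fell in ρ0 cells (PSMC2, PSMC3, PSMD11 and PSMD9). PSMD10, PSME2, PSMG3 and PSMG4 were called in neither line. The same cross was not counted over all tested genes, so these numbers list the members and are not compared with a background. Summed over the 46 genes, the level was 6021 and 6290 CPM in parental control, 7536 and 7643 CPM in starved parental, 7552 and 7528 CPM in ρ0 control and 6595 and 6559 CPM in starved ρ0 libraries. The sum was 1.23 times the control in starved parental cells and 0.872 times in starved ρ0 cells, with both starved libraries above the controls in the former and below them in the latter, as they also were in the raw share of counts (0.648% and 0.679% against 0.728% and 0.734%, and 0.754% and 0.765% against 0.629% and 0.627%). By class the sums were 1.15 and 0.848 times the control for the constitutive core, 1.24 and 0.845 times for the cap, 1.20 and 0.840 times for the chaperones, 1.69 and 1.07 times for the activators and inhibitor and 0.494 and 0.849 times for the immunoproteasome, in parental and ρ0 cells respectively.

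**Figure D3:**
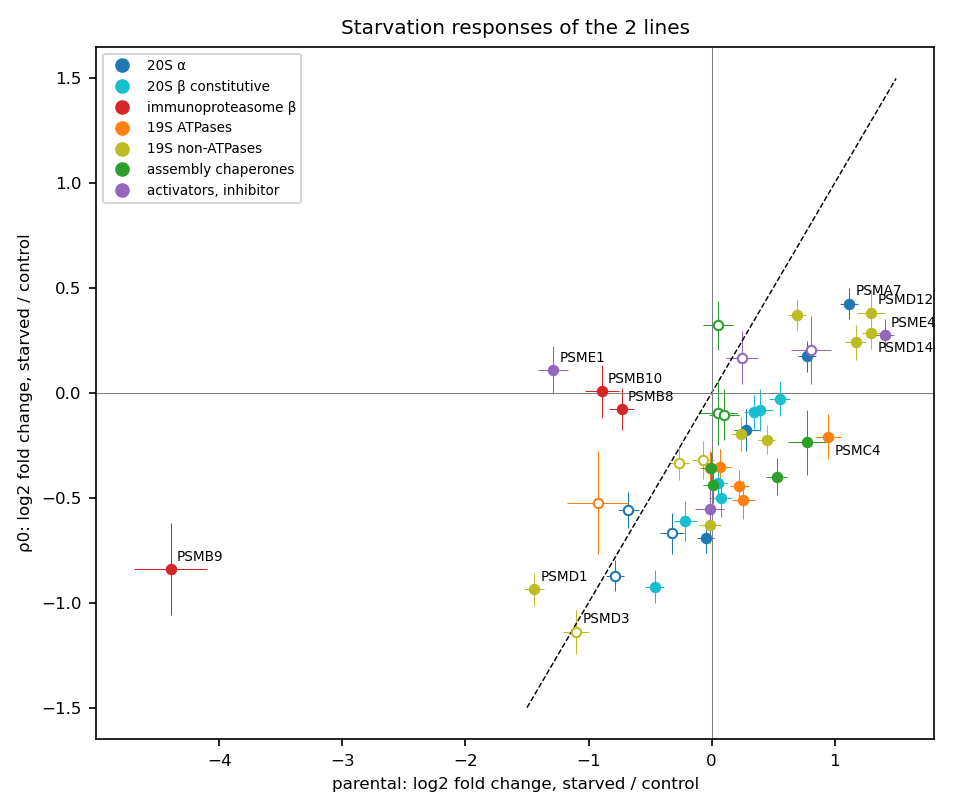
Log2 fold change under starvation in parental (x axis) and ρ0 cells (y axis) for the 46 members, coloured by class, with SE bars. The dashed line marks equal responses, and filled points differ between the lines in the test. Below the line lie 38 of 46 points, a share that was not counted over all genes. Above it lie 8, of which PSMB9, PSME1, PSMB10, PSMB8 and PSMD1 are filled.

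The next question was how the lines differed in full medium. Of the 46 members, 26 were higher and 3 lower in ρ0 cells, or 56.5% and 6.52% against 30.5% and 31.8% of all tested genes. The median difference was 0.34 for the members and -0.01 for all genes. Both control groups also enter the starvation comparisons and their difference, so this comparison is not separate support for them. Past the fold threshold 4 were higher (8.7% against 13.6% of all genes), and the largest negative difference was -0.50, while 17.3% of all genes were lower past the threshold. With only the 4 control libraries in the fit, 17 were higher and 1 lower, beside 3465 and 3751 of 14952 genes. More members were called higher without either ρ0 control library and fewer without either parental control library, as over all genes. Fewer were called lower without parental control 2, ρ0 starved 1 or ρ0 starved 2, again as over all genes.

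The 4 largest differences were in PSME1, PSMB10, PSME2 and PSMB9, each known as a gene that interferon induces. PSME1 read 62.7 and 65.1 CPM in parental and 236 and 184 CPM in ρ0 control libraries, a 3.29-fold higher level (log2 fold change 1.72 ± 0.12, edgeR adjusted p = 1.92e-05). PSMB10 read 12.3 and 12.0 against 42.7 and 33.9 CPM (1.65 ± 0.13, adjusted p = 3.86e-05), and PSME2 26.4 and 25.1 against 81.8 and 62.8 CPM (1.49 ± 0.13, edgeR adjusted p = 5.43e-05). In all 3 genes both ρ0 libraries were far above both parental ones. PSMB9 was higher by 1.22 ± 0.22 (edgeR adjusted p = 0.00199), or by 0.80 without ρ0 control 1 and 1.60 without ρ0 control 2. PSMB8 overlapped between the lines, at 80.7 and 85.5 against 92.4 and 77.9 CPM (0.04 ± 0.10), and was called higher only without ρ0 control 2 (0.21, adjusted p = 0.00393).

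The chaperone PSMG4 was also higher (0.99 ± 0.12), as were PSMD6 (0.95 ± 0.09) and the chaperone PSMD5 (0.82 ± 0.08). Of the constitutive core, 7 of 14 were higher, among them PSMB2, PSMB3, PSMB5, PSMB6 and PSMB7, by 0.34 to 0.53. The 3 lower members were PSMD9, at 64.4 and 69.2 against 48.0 and 46.3 CPM (-0.50 ± 0.09, edgeR adjusted p = 0.00167), PSMA4, at 235 and 248 against 206 and 181 CPM (-0.32 ± 0.09, adjusted p = 0.0138), and PSMD13, at 213 and 232 against 184 and 196 CPM (-0.23 ± 0.08, adjusted p = 0.0356). None of the 3 overlapped between the lines. Apart from stricter thresholds, the call of PSMA4 was lost in 4 alternatives and that of PSMD13 in 8, at adjusted p up to 0.109 and 0.205.

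When both lines were starved, 10 members were higher and 16 lower in ρ0 cells, or 21.7% and 34.8% against 32.9% and 33.5% of all tested genes, with a median of -0.12 against -0.01. Past the fold threshold 5 were higher and 2 lower, or 10.9% and 4.35% against 18.7% and 16.8%. More members were called lower without either ρ0 control library and fewer without any starved library, as over all genes. This comparison shares its libraries with the starvation comparisons, so the values are set side by side and not read as separate support.

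PSMB9 had 24 and 30 counts in starved parental and 789 and 701 counts in starved ρ0 libraries, a 27.5-fold higher level (log2 fold change 4.78 ± 0.29, edgeR adjusted p = 9.38e-06). PSME1 was 8.65-fold higher (3.11 ± 0.13, adjusted p = 1.8e-06), PSMB10 higher by 2.55 ± 0.14 and PSMB8 by 0.69 ± 0.10. The immunoproteasome genes thus differed between the starved lines without overlap. The largest negative difference was that of PSMD9, at 97.6 and 95.2 against 33.8 and 37.8 CPM (-1.43 ± 0.09, edgeR adjusted p = 9.65e-06). An exon of WDR66 overlaps PSMD9 on the same strand in GENCODE v29, so the counts of PSMD9 may hold reads of WDR66. PSME4 was lower by 1.05 ± 0.08 and PSMA3, at 137 in both parental against 81.6 and 79.9 CPM, by 0.76 ± 0.07.

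**Figure D4:**
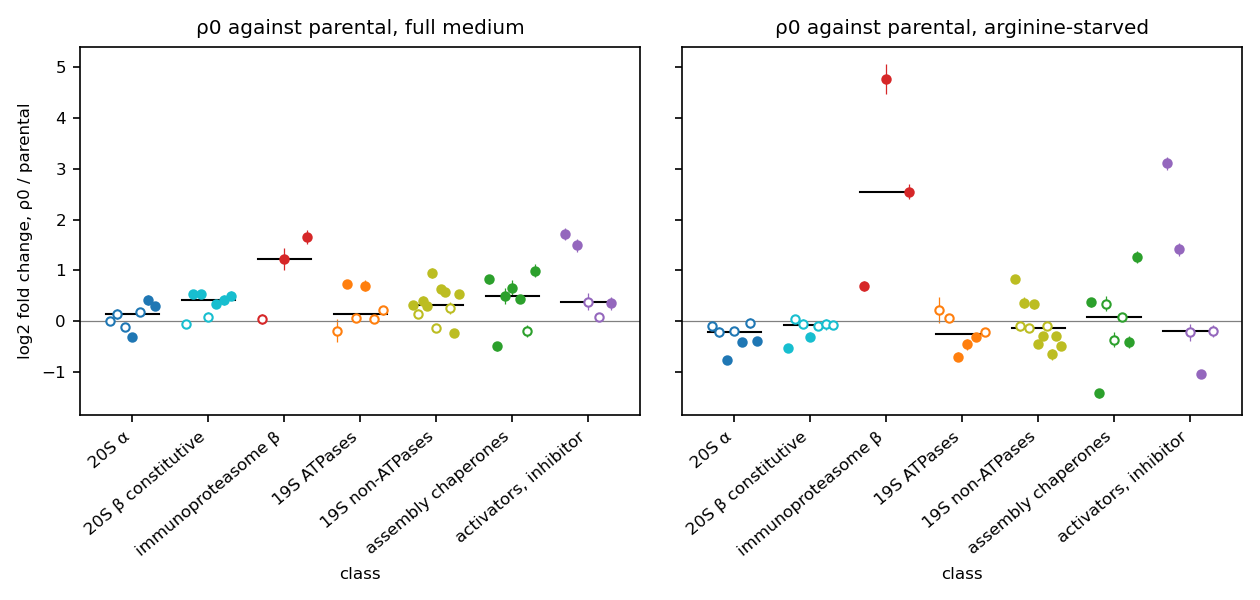
Log2 difference between ρ0 and parental cells for each member by class, in full medium (left) and both starved (right). Points are members with SE bars, filled where called, and black lines are class medians, at 1.22 and 2.55 for the immunoproteasome and at 0.41 and -0.08 for the constitutive beta ring.

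Levels of different genes were compared per kilobase of transcript, with the median length of the coding transcripts of each gene in GENCODE v29. PSMA7 was the highest member in all 4 groups, at 365 ± 13 CPM per kb (SD, n = 2) in parental control and 793 ± 11 in starved parental libraries. PSMC1 was the lowest in all 4 groups, at 0.961 ± 0.037 in parental control. In the alpha ring the level in parental control thus ran from 16.8 ± 0.57 for PSMA6, a gene with 4 named pseudogenes, through 71.6 ± 3.9 for PSMA2 and 74.8 ± 3.5 for PSMA5, which did not differ beyond their spread, to 365 for PSMA7. PSMB8 stood at 73.9 ± 3.0, PSMB9 at 27.1 ± 0.16 and PSMB10 at 9.99 ± 0.18, below PSMB5 at 169 ± 12, PSMB6 at 128 ± 9.1 and PSMB7 at 106 ± 4.9. In starved parental libraries PSMB9 was at 1.28 ± 0.10 and ranked 45 of 46, and in starved ρ0 libraries at 35.4 ± 2.1 and ranked 37. PSME1 ranked 27 in parental control, 40 in starved parental, 5 in ρ0 control and 2 in starved ρ0 libraries.

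PSMB8 and PSMB9 lie side by side in the MHC region on chromosome 6, in the order TAP2, PSMB8, TAP1, PSMB9 and HLA-DMB. TAP1, a subunit of the peptide transporter, starts 488 bases from PSMB9 and is read the other way. The ISRE core was matched at 2 overlapping positions, 134 and 128 bases before the TAP1 start and so between both genes, in sequence that the PSMB9 window above does not cover. TAP1 read 93.3 and 96.9 CPM in parental control and 82.6 and 82.5 CPM in starved parental libraries (log2 fold change -0.20 ± 0.16, edgeR adjusted p = 0.287), beside the -4.40 of PSMB9. TAP1 was called lower in 4 alternatives (adjusted p from 0.000337 to 0.00655), among them leaving out either ρ0 control library. In ρ0 cells it read 140 and 95.8 against 155 and 155 CPM and was not called, but it was called higher without ρ0 control 1 (0.69) or ρ0 control 2 (0.15). PSMB8-AS1, whose exons overlap PSMB8 on the opposite strand and PSMB9 on the same strand, had 60 and 42 counts in parental control, 13 and 21 in starved parental, 156 and 142 in ρ0 control and 105 and 115 in starved ρ0 libraries. The counting is not stated to use strand, so reads of these overlapping genes cannot be told apart. In all, 15 members overlap an exon of another gene on the opposite strand and 2 on the same strand. The 2 were PSMB9 and PSMD9 (with WDR66). The opposite-strand overlaps included those of PSME1 (EMC9), PSME2 (RNF31), PSME4 (ACYP2) and PSMD1 (HTR2B).

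Proteasome factors outside the name series were counted in the same way. Of 10, 7 were called higher and 2 lower in starved parental cells and 3 and 2 in starved ρ0 cells, and the response was lower in ρ0 cells for 6 and higher for 0. In the lines' comparison 5 were higher and 1 lower in full medium, and 2 and 5 when starved. Over all tested genes, the shares higher and lower were 30.4% and 35.5% in starved parental cells, 19.2% and 22.1% in starved ρ0 cells, 21.6% and 18.8% for the difference of the responses, 30.5% and 31.8% between the lines in full medium and 32.9% and 33.5% between the starved lines. POMP, the maturation protein of the core, read 117 and 122 against 146 and 155 CPM in parental and 165 and 151 against 120 and 120 CPM in ρ0 cells. It rose by 0.33 ± 0.08 in the former and fell by 0.39 ± 0.08 in the latter, with no overlap in either line. Its call in parental cells was lost with total counts alone, and its call in ρ0 cells with the 4 ρ0 libraries alone or without either starved one. ADRM1, a ubiquitin receptor of the cap, rose from 223 and 237 to 507 and 509 CPM in parental cells (1.14 ± 0.10). In ρ0 cells ADRM1 rose from 262 and 317 to 383 and 381 CPM (0.40 ± 0.10, edgeR adjusted p = 0.0175). That call in ρ0 cells was lost without either starved ρ0 library. AKIRIN2, an adaptor for nuclear import of proteasomes, rose by 1.71 ± 0.10 in parental and 0.67 ± 0.10 in ρ0 cells (difference -1.04 ± 0.14, edgeR adjusted p = 0.00153), and SHFM1, a small cap subunit, fell by 1.09 ± 0.13 and 1.04 ± 0.13. UBE3C, a ubiquitin ligase that works at the proteasome, read 73.5 and 70.9 CPM in parental and 233 and 260 CPM in ρ0 control libraries (1.77 ± 0.08, edgeR adjusted p = 4.21e-06), and was higher by 1.42 ± 0.08 in starved ρ0 cells. AKIRIN2 was lower in ρ0 cells, by 0.54 ± 0.10 in full medium, where the call was lost in limma-voom with group weights, and by 1.58 ± 0.10 when starved.

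NFE2L1 is the factor that raises proteasome genes when the proteasome is impaired, after processing by DDI2 and NGLY1. Its mRNA read 477 and 483 CPM in parental control and 343 and 324 CPM in starved parental libraries, and 474 and 471 against 809 and 794 CPM in ρ0 cells. It thus fell by 0.52 ± 0.07 in parental cells and rose by 0.76 ± 0.07 in ρ0 cells, with no overlap in either line (difference 1.29 ± 0.10, edgeR adjusted p = 0.000289), while mRNA levels leave the processed protein unmeasured. DDI2, the protease that cleaves NFE2L1, rose by 1.86 ± 0.20 in parental and 1.22 ± 0.20 in ρ0 cells, where the call was lost in limma-voom with group weights, and NGLY1 by 1.14 ± 0.08 and 0.48 ± 0.08 (difference -0.66 ± 0.12, edgeR adjusted p = 0.00489). VCP, the segregase that extracts NFE2L1 from the endoplasmic reticulum, was the only one of the list called lower in ρ0 cells (-0.53 ± 0.09). Over this list of 7, 4 rose and 1 fell in parental cells, 5 rose and 1 fell in ρ0 cells, and the response was higher in ρ0 cells for 1 and lower for 2. In the lines' comparison 4 were higher and 0 lower in full medium, and 4 were higher and 2 lower when starved, to be read against the shares of all genes given for the previous list. NFE2L2, the antioxidant response factor, had the largest difference in full medium, at 99.2 and 103 against 211 and 268 CPM (1.24 ± 0.12, edgeR adjusted p = 8.44e-05). When starved, NFE2L1 was higher in ρ0 cells by 1.26 ± 0.07 and DDI2 lower by 0.95 ± 0.19.

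Of 15 genes of interferon signalling and peptide loading, 14 were tested, since IRF9 was listed at 0 in every library. Whether that 0 reflects expression or the counting, whose rule is not given, was not tested. In starved parental cells 2 rose and 6 fell, and in starved ρ0 cells 5 rose and 3 fell, where 30.4% and 35.5% and then 19.2% and 22.1% of all tested genes rose and fell. ERAP2, a peptidase that trims MHC class I peptides, read 7.44 and 6.67 against 0.832 and 0.709 CPM in parental cells (-3.19 ± 0.25, edgeR adjusted p = 3.59e-05), and was the largest fall of the list. IRF1, a transcription factor of immunoproteasome genes, ran against this fall, at 11.6 and 12.1 against 32.9 and 33.5 CPM (1.49 ± 0.12), and rose by 0.55 ± 0.11 in ρ0 cells. HLA-B, an MHC class I heavy chain, had the largest rise in ρ0 cells, from 860 and 546 to 1449 and 1405 CPM (1.02 ± 0.19, edgeR adjusted p = 0.00442), and NLRC5, a transactivator of MHC class I genes, the largest fall, from 39.5 and 39.6 to 20.1 and 18.7 CPM (-1.03 ± 0.10, adjusted p = 0.000421). HLA-B reads may be shared with other MHC class I genes. The response was higher in ρ0 cells for 8 of 14 and lower for 2, against 21.6% and 18.8% of all genes, with the largest differences in ERAP2 (2.51 ± 0.31) and IRF1 (-0.94 ± 0.16). Between the lines 10 were higher and 2 lower in ρ0 cells in full medium, where IRF1 led at 117 and 93.7 CPM (3.15 ± 0.12), and 13 were higher and 1 lower when starved, against 30.5% and 31.8% and then 32.9% and 33.5% of all genes. STAT2, a signal transducer of type I interferon, was the lower gene with the largest difference in full medium, at 106 and 110 against 86.4 and 47.7 CPM (-0.69 ± 0.23, edgeR adjusted p = 0.0336). Its call was lost with the 4 control libraries alone (0.0957) and without any library outside ρ0 control (0.0565 to 0.122). When starved, ERAP2 was higher by 4.75 ± 0.24 and TAP2, the partner of TAP1, lower, at 387 and 381 against 193 and 198 CPM (-0.97 ± 0.07, edgeR adjusted p = 2.08e-05). The epithelial markers given above differed between the lines alongside these genes, and their part was not tested.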

How the data were processed

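RNA-seq of 8 libraries was analysed, 2 in each of 4 groups as the sample labels give them. The authors deposited 1 table of raw read counts, whole numbers with a row for each gene symbol. The submitters' processing notes name Bowtie, Partek and the hg19 build without a version. The annotation, the counting rule and the use of strand are not given in the sources used here. The study describes FPKM and thresholds for differential expression, and no FPKM were used here.

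Counts were tested with edgeR 4.0.16 under R 4.3.3. Genes were kept by filterByExpr (15262 of 23393), scaled by TMM and fitted by the quasi-likelihood test to all 8 libraries with 1 mean per group, which left 4 residual degrees of freedom (prior 3.40) and a biological coefficient of variation of 12.4%. Benjamini-Hochberg adjustment ran over all genes tested, and a gene was called at an adjusted p under 0.05. Standard errors are the log2 fold change over the square root of F. The scripts were tested on simulated counts.

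Members, classes, companion lists and alternatives were chosen with earlier results of these data known. Per-library values are given for the catalytic pairs and for the 3 largest called rises and falls of each comparison, and other members by class. From the companion lists, POMP, ADRM1, NFE2L1 and TAP1 and the largest called rise and fall of each comparison were named. The neighbours PSMB8-AS1 and EMC9 were named after their values were seen. Other overlapping genes were also named afterwards, from the annotation. One companion list, of ubiquitin and shuttle factors, is not reported here. Alternatives were other scalings, other filters, DESeq2 1.42.0, limma 3.58.1 (voom, with and without group weights), a block for the replicate number, fits to the groups compared, other thresholds and leaving out each library. Same-numbered libraries did not deviate together (correlations of deviations from -0.12 to 0.07), so the numbers were not taken as pairs. Promoters came from RefSeq (GRCh38.p14) and lengths, pseudogenes and overlaps from GENCODE v29, neither of which is the build of the files, so no coordinates of the counted reads are given.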

Additional observations from a re-analysis of the deposited data

Results flagged for a closer look

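The test of the difference between the lines' starvation responses (ρ0 minus parental, log2, edgeR's quasi-likelihood test with Benjamini-Hochberg adjustment) called 29 proteasome genes lower and 5 higher. The ρ0 response was the lower one for PSMC4 (-1.15), PSME4 (-1.13), PSMG1 (-1.01), PSMD14 (-1.01), PSMD8 (-0.93), PSMD9 (-0.93) and PSMD12 (-0.92). It was lower by less for PSMC3 (-0.77), PSMA7 (-0.69), PSMD11 (-0.67), PSMC2 (-0.67), PSMA3 (-0.64), PSMD6 (-0.62), PSMA5 (-0.60), PSMB7 (-0.58), PSMB3 (-0.57) and PSMF1 (-0.54). The remaining lower responses were those of PSMB2 (-0.48), PSMB6 (-0.47), PSMB1 (-0.46), PSMA6 (-0.46), PSMD5 (-0.45), PSMD4 (-0.44), PSMB5 (-0.43), PSMC6 (-0.42), PSMB4 (-0.40), PSMG2 (-0.35), PSMC5 (-0.35) and PSMD7 (-0.32). It was the higher one for PSMB9 (3.56), PSME1 (1.40), PSMB10 (0.90), PSMB8 (0.65) and PSMD1 (0.51). The ρ0 control libraries, which enter every one of these differences, had the widest spread of the 4 groups, a biological coefficient of variation of 25.1%. Limma-voom with group weights, which let the spread differ, called 26 lower and 5 higher, beside 2699 and 3082 of all 15262 genes. The part of this spread in single genes was not tested.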

How the results depend on the processing

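No called member changed sign under any alternative. With a fold threshold in place of any fold, the counts of members higher and lower were 5 and 4 in starved parental cells, 0 and 1 in starved ρ0 cells, 2 and 4 for the difference of the responses, 4 and 0 between the lines in full medium and 5 and 2 between the starved lines. The shares of all genes past this threshold are given with each comparison above. With an adjusted p under 0.01, 2 were higher in starved ρ0 cells, 15 lower for the difference and 1 lower in full medium. These counts stood beside 1726, 1387 and 3805 of all 15262 genes. Upper quartile scaling left 19 lower for the difference (2280 of all genes). Total counts alone gave 2 higher in starved ρ0 cells (2416 of all genes) and 5 lower in full medium (5387). These scalings moved the median of all genes in starved parental cells by -0.12 and -0.16. Limma-voom with group weights, which let the groups differ in spread, gave 2 higher and 16 lower in starved ρ0 cells. Over all 15262 genes it gave 1797 and 2196 there. For the difference it gave 5 higher and 26 lower members, beside 3082 and 2699 of all genes. Between the starved lines it gave 26 lower, beside 6469 of all genes. With only the groups compared in the fit, 1 was higher and 11 lower in starved ρ0 cells, beside 1462 and 1665 of 14127 genes. In full medium 17 were higher and 1 lower, beside 3465 and 3751 of 14952. Between the starved lines 26 were lower, beside 6096 of 14357. The median of members relative to all genes was 0.10 without a filter and 0.049 with at least 10 counts in every library for parental starvation, -0.084 without a filter for the starved lines and -0.42 with that minimum for the difference. The cause of these changes was not tested, beyond the smaller number of libraries or genes that an alternative itself sets.

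With each library left out in turn, counts in starved ρ0 cells ran from 1 to 11 higher and 11 to 28 lower, for the difference from 2 to 6 higher and 15 to 34 lower, in full medium from 1 to 4 lower, and between the starved lines from 10 to 25 lower. Over all genes, calls in each of these comparisons were more numerous without either ρ0 control library and fewer without any other library. The ranges are therefore not read as changes particular to the members. The same held over all genes for starved parental cells and for genes higher between the lines, whose member counts are not listed here. The median relative to all genes ran from 0.10 to 0.16 in starved parental cells, -0.32 to -0.24 in starved ρ0 cells, -0.51 to -0.43 for the difference and -0.13 to -0.10 between the starved lines. For the constitutive core it ran from 0.090 to 0.16 in starved parental cells, -0.56 to -0.45 for the difference, 0.19 to 0.32 in full medium and -0.15 to -0.13 between the starved lines, and for the cap from -0.56 to -0.45 for the difference and 0.27 to 0.40 in full medium. For the activators and inhibitor it ran from 0.28 to 0.37 in parental and 0.0027 to 0.30 in ρ0 starvation, -0.77 to -0.34 for the difference, 0.19 to 0.66 in full medium and -0.19 to -0.17 between the starved lines. For the chaperones it ran from 0.10 to 0.16 and from -0.38 to -0.17 in the same order, -0.46 to -0.35 for the difference and 0.43 to 0.51 in full medium. For the immunoproteasome it ran from 0.69 to 1.03 for the difference, 0.83 to 1.59 in full medium and 2.48 to 2.64 between the starved lines. The difference in the log2 ratio ran from 3.84 to 4.34 for PSMB9 to PSMB6, 1.24 to 1.74 for PSMB10 to PSMB7 and 1.01 to 1.18 for PSMB8 to PSMB5. With 1 library of a group left, that library is assumed to vary like the other groups.

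With the replicate number as a block, members higher and lower numbered 18 and 12 in starved parental cells, 5 and 22 in starved ρ0 cells and 5 and 24 for the difference. They numbered 26 and 3 in full medium and 10 and 17 between the starved lines. In the same order, the calls of all 15262 genes were 4553 and 5343, 2799 and 3116, 3098 and 2633, 4526 and 4772, and 4963 and 5027. The call of PSMB6 for the difference was lost (adjusted p = 0.0516). The libraries share a number only, with correlations of deviations of -0.06 between the parental groups, -0.03 between the ρ0 groups, 0.07 between the controls and 0.05 between the starved groups.

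Limits are the 2 libraries per group, the single ρ0 clone, the unequal culture conditions of the lines and the wide ρ0 control group. PSMB9 in starved parental cells rests on 24 and 30 counts. Read counts of mRNA do not measure subunit protein, assembly or activity.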
